A study of Arabidopsis thaliana with 6 samples.

Results

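Strigolactones are plant hormones made from carotenoids, and karrikins are butenolides of smoke whose receptor is thought to bind a related, still unidentified plant compound. In Arabidopsis thaliana, D27, CCD7, CCD8 and MAX1 act one after another in strigolactone synthesis. The receptors D14 (strigolactone) and KAI2 (karrikin) are related alpha/beta hydrolases that both work through the F-box protein MAX2, which marks repressor proteins of the SMXL family, SMAX1 among them, for breakdown. In roots these pathways are known for effects on root hairs, lateral roots and the angle of root growth. The 10 genes described here are the synthesis genes D27, CCD7, CCD8 and MAX1, the receptors D14 and KAI2, the receptor paralog DLK2, the F-box gene MAX2, the repressor gene SMAX1 and KUF1, a karrikin-induced F-box gene. They were chosen by locus as genes of these pathways, with earlier results of these data known, and hold 12 of the 37118 transcript models and 10 of the 32627 loci on the array (D27 and MAX1 have 2 models each).

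RNA of whole roots was measured on 6 one-colour NimbleGen arrays. In 3 samples the roots had grown in darkness while the shoot was lit with white light (75 µmol m-2 s-1), which the labels call the treatment, and in the other 3 the shoot and the root had both grown in that light, the control. All plants were Arabidopsis seedlings grown for 12 days on diluted Murashige and Skoog medium, and each sample came from its own plate. The labels give no accession or genotype. The comparison asks which root transcripts differ when only the lighting of the root differs.

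The values are log2 expression values, and every array has the same spread of values (4.70 to 15.92, median 11.84). Light replicate 3 stood apart from light replicates 1 and 2 on the second principal component (45.3 against -37.2 and -34.8), which took 24.2% of the variance. The labelled tissue was checked on markers. The 10 root markers had array medians of 14.69 to 14.73 in dark-grown roots and 14.26 to 14.54 in light-grown roots, and none passed the test of the comparison. Of 12 shoot markers, which a root harvest could carry, 10 had means under 8 in dark-grown roots and 10 in light-grown roots, with array medians of 7.16 to 7.34 and 7.10 to 7.55. Of the 12 shoot markers, STM was higher in the dark (0.84, adjusted p = 0.0202 in limma) and KNAT1 lower (-1.13, adjusted p = 0.0147 in limma). STM was dim, with means of 7.34 in dark-grown and 6.49 in light-grown roots. KNAT1 was not (11.69 and 12.82), nor was AS1 (13.82 and 13.70), which did not pass. When 1 array was left out, STM passed only without dark replicate 2 (0.95, adjusted p = 0.0319 in limma; 0.0572 to 0.0894 otherwise). KNAT1 passed in each of the 3 fits that left out a light replicate but not without dark replicate 1, 2 or 3 (-1.08, -1.19 and -1.12, adjusted p = 0.0517 to 0.0702 in limma). The part of shoot tissue in the results was not tested. In whole-root RNA, fewer cells of a type and less RNA per cell cannot be told apart.

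Transcripts of the strigolactone synthesis gene CCD8 and of the karrikin receptor gene KAI2 fell in dark-grown roots, 1.89-fold and 1.63-fold below light-grown roots. No member rose. The other 8 genes did not pass the test, and among them the strigolactone receptor gene D14 lay just outside the threshold. With limma and Benjamini-Hochberg adjusted p-values over every model on the array (threshold 0.05), 2 of the 12 member models were lower and 0 were higher in the dark, where 3.22% of all models were lower and 2.43% higher. At an unadjusted p under 0.05, 5 member models were lower and 0 higher, against 8.99% and 12.2% of all models. In 6 member models, all of the dark arrays lay below all of the light arrays, and in 0 above, against 12.0% and 16.4% of all models. The median difference, dark minus light, was -0.05 over the 12 models and 0.02 over all models. The calls on CCD8 and KAI2 rest on 3 arrays a group. Each passed in only 1 of the 6 fits that left out 1 array, as described with the plot of 4 members under each fit. Calls over all models also fell in those fits, from 1196 lower to between 607 and 905. Those higher fell from 903 to between 158 and 473.

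**Figure D1:**
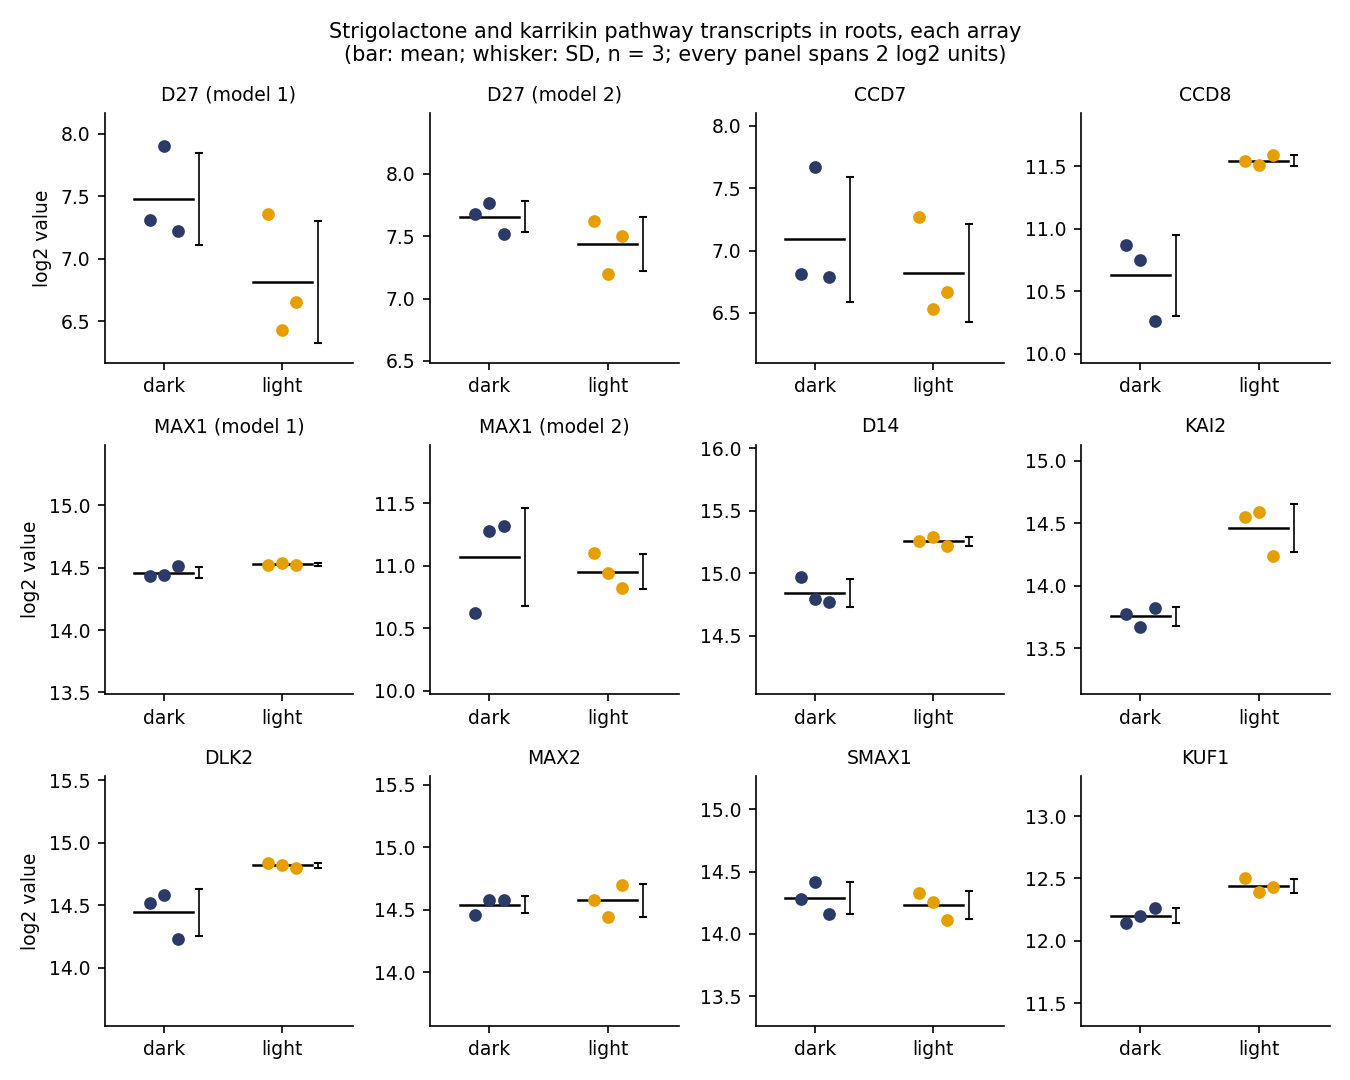
Log2 expression value (y axis) of each member transcript model on each of the 3 dark (blue) and 3 light (orange) arrays, with the mean as a bar and the SD as a whisker. The dark arrays of CCD8, D14, KAI2, DLK2 and KUF1 lie below their light arrays, while those of MAX2, SMAX1, D27 and CCD7 overlap with them.

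In synthesis, D27 (AT1G03055) encodes the isomerase that acts on beta-carotene. Its model 1 had log2 values of 7.31, 7.90 and 7.22 in dark-grown roots and 7.36, 6.43 and 6.65 in light-grown roots. The groups overlapped, since light replicate 1 lay above 2 of the dark arrays. The difference was 0.66 (SE 0.30, 95% interval -0.08 to 1.40, adjusted p = 0.286 in limma), and that of model 2 was 0.22 (SE 0.14, adjusted p = 0.446). CCD7 (AT2G44990, also MAX3), the first of the pair of cleavage dioxygenases, had values of 6.81, 7.67 and 6.79 in dark-grown roots and 7.27, 6.53 and 6.67 in light-grown roots. One array in each group stood well above its fellows, dark replicate 2 and light replicate 1, and the groups overlapped (difference 0.27, SE 0.31). Both D27 and CCD7 lie in the dim part of the scale, where 19.3% to 24.8% of models have means as low or lower. The 95% interval of the difference of CCD7 ran from -0.51 to 1.04.

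CCD8 (AT4G32810, also MAX4), the dioxygenase that follows CCD7 and yields carlactone, had log2 values of 10.87, 10.75 and 10.26 in dark-grown roots and 11.54, 11.51 and 11.59 in light-grown roots. The light arrays lay close together, and all of the dark arrays were below them, dark replicate 3 the farthest. CCD8 averaged 10.63 ± 0.32 in dark-grown roots and 11.55 ± 0.04 in light-grown roots (mean ± SD, n = 3 each). The difference of -0.92 (SE 0.17, 95% interval -1.34 to -0.50, adjusted p = 0.0385 in limma) was the largest of any member in size. In the RefSeq gene table the CCD8 locus overlaps the gene AT4G32820, which was higher in dark-grown roots (0.40, adjusted p = 0.0437 in limma) but did not pass in any of the 6 fits that left out 1 array (adjusted p = 0.0909 to 0.159). Whether the array tells these loci apart was not tested.

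MAX1 (AT2G26170, CYP711A1) is the cytochrome P450 that oxidises carlactone. Its model 1 had values of 14.43, 14.44 and 14.51 in dark-grown roots and 14.52, 14.54 and 14.52 in light-grown roots. The groups were apart by only 0.01, and the difference of -0.07 (SE 0.07, 95% interval -0.23 to 0.10) did not pass (adjusted p = 0.657 in limma). Model 2, at lower signal, differed by 0.12 (SE 0.21). Of the 4 synthesis genes, CCD8 was therefore the one that passed. Whether CCD8 differed from CCD7 in its response is not read here, since CCD7 is dim in both groups.

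Among the hydrolases, the karrikin receptor gene KAI2 (AT4G37470) had log2 values of 13.77, 13.67 and 13.82 in dark-grown roots and 14.55, 14.59 and 14.24 in light-grown roots. The dark arrays were close together and all below the light arrays, of which light replicate 3 was the lowest. KAI2 averaged 13.75 ± 0.08 in dark-grown roots and 14.46 ± 0.19 in light-grown roots (mean ± SD, n = 3 each), a difference of -0.71 (SE 0.12, 95% interval -0.996 to -0.417, adjusted p = 0.0287 in limma). Neither gene next to KAI2 in the RefSeq table passed.

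D14 (AT3G03990) had values of 14.97, 14.79 and 14.77 in dark-grown roots and 15.26, 15.29 and 15.22 in light-grown roots. The groups did not overlap, and the light arrays lay 0.66 on average below the highest value of the arrays. The difference was -0.41 (SE 0.08, 95% interval -0.62 to -0.21, adjusted p = 0.0507 in limma), which missed the threshold. DLK2 (AT3G24420), a paralog of unsettled function whose transcript is used as a readout of karrikin and strigolactone treatment, had 14.52, 14.58 and 14.23 in dark-grown roots and 14.84, 14.82 and 14.80 in light-grown roots. The groups did not overlap, dark replicate 3 was the lowest, and the difference of -0.38 (SE 0.11, 95% interval -0.65 to -0.10) did not pass (adjusted p = 0.123 in limma).

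The 3 hydrolase genes had differences of -0.71, -0.41 and -0.38. Their responses were compared through the log ratio of a pair of genes within each array, and p-values were adjusted over 5 pairs, which were chosen after the values were seen. The difference of KAI2 was lower by 0.29 (SE 0.12) than that of D14 and by 0.33 (SE 0.18) than that of DLK2, each with p = 0.2 in the exact two-sided permutation test (adjusted p = 0.25). Between D14 and DLK2 the responses differed by -0.04 (SE 0.10, exact permutation p = 0.9). None of these 3 comparisons reached 0.1, the smallest p that 3 against 3 arrays allow.

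**Figure D2:**
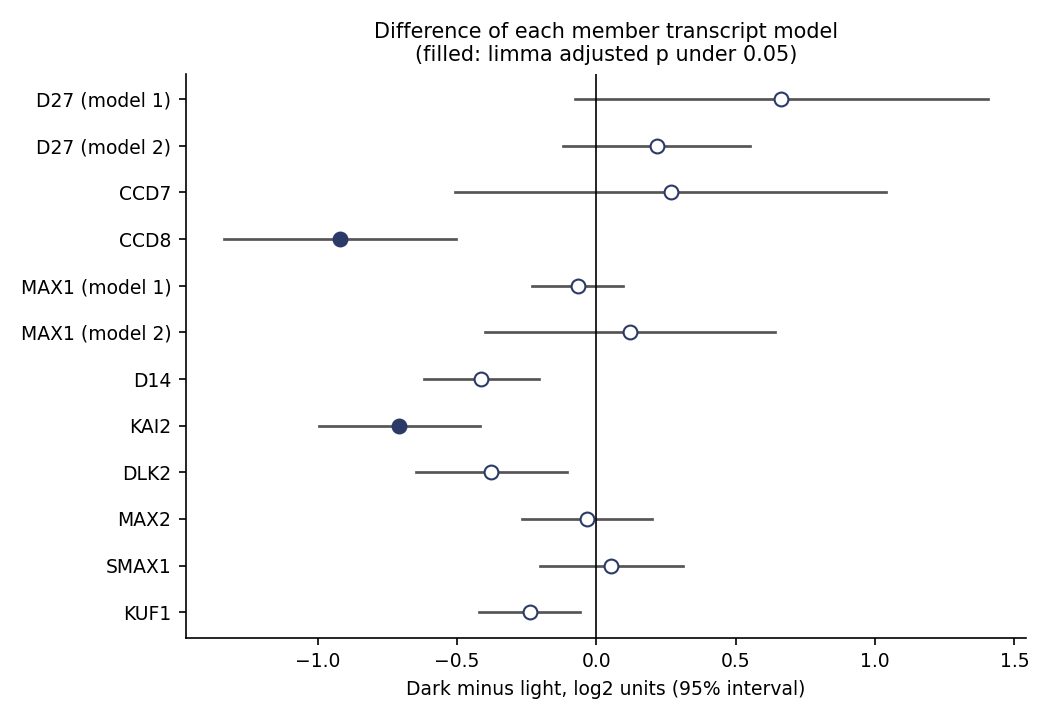
Difference between dark-grown and light-grown roots in log2 units (x axis) for each member transcript model (y axis), as a point with its 95% interval from limma, filled where the adjusted p is under 0.05. CCD8 (-0.92) and KAI2 (-0.71) are filled, and the intervals of D14, DLK2 and KUF1 also lie below 0.

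Downstream of the receptors, MAX2 (AT2G42620) encodes the F-box protein that both share. MAX2 had log2 values of 14.46, 14.58 and 14.58 in dark-grown roots and 14.58, 14.44 and 14.70 in light-grown roots. The groups overlapped throughout, and the interval of the difference ran from -0.27 to 0.20 (difference -0.03, SE 0.09, adjusted p = 0.895 in limma). SMAX1 (AT5G57710), the repressor that KAI2 and MAX2 act on, had 14.28, 14.42 and 14.16 in dark-grown roots and 14.33, 14.26 and 14.11 in light-grown roots. These groups overlapped as well, with a difference of 0.05 (SE 0.10, 95% interval -0.20 to 0.31, adjusted p = 0.841 in limma). KUF1 (AT1G31350), which in Arabidopsis restrains karrikin signalling and is itself induced by it, had 12.14, 12.20 and 12.26 in dark-grown roots and 12.50, 12.39 and 12.43 in light-grown roots. All of the dark arrays were below the light arrays, but the difference of -0.24 (SE 0.07, 95% interval -0.42 to -0.06) did not pass (adjusted p = 0.139 in limma).

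The remaining SMXL repressors and the TOPLESS corepressors that they recruit gave 0 of 12 genes past limma's test, while 5 were higher and 1 lower in dark-grown roots at an unadjusted p under 0.05, against 12.1% higher and 9.08% lower of all loci. The median difference was 0.14, against 0.01 over all loci, and 11 of the 12 differences were above 0, as were 17123 of the 32627 over all loci. The 10 root markers had a median difference of 0.12, with 9 above 0, and the part of root cell makeup in the shift of this list was not tested. SMXL2, the closest paralog of SMAX1 and, like it, a target of KAI2 and MAX2, averaged 14.97 ± 0.04 in dark-grown roots and 14.63 ± 0.09 in light-grown roots (mean ± SD, n = 3 each). Its groups did not overlap, and its difference was 0.34 (SE 0.08, adjusted p = 0.0674 in limma). SMXL3, one of the SMXL genes that act in phloem formation, differed by 0.46 (SE 0.11, adjusted p = 0.0804). SMXL8, a target of D14, was the one gene with a difference below 0 (-0.45, SE 0.11, adjusted p = 0.0821; chosen after its values were seen). The difference of SMAX1 was lower than that of SMXL2 by 0.29 (SE 0.07, exact permutation p = 0.1, the smallest possible, adjusted p = 0.25).

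The core subunits of the ubiquitin ligase in which MAX2 works gave 0 of 4 genes past limma's test. They also gave 0 at an unadjusted p under 0.05, against 9.08% lower and 12.1% higher of all loci. ASK1 differed by -0.11 (SE 0.08) and CUL1 by 0.09 (SE 0.11). All 4 subunits are near the top of the scale, with means of 15.30 to 15.59 in either group. In a list of 6 other genes of strigolactone synthesis or turnover, limma also called 0. At an unadjusted p under 0.05, 2 of the 6 were lower and 1 higher in the dark, against 9.08% and 12.1% of all loci. The lowest p-values there belonged to AT5G06570 (0.53, SE 0.15, adjusted p = 0.111) and AT1G64680 (-0.48, SE 0.13, adjusted p = 0.113), which the RefSeq table does not name. AT1G64680 was dim, with means of 7.16 in dark-grown and 7.64 in light-grown roots. LBO, an oxidoreductase late in the pathway, chosen after its values were seen, differed by -0.29 (SE 0.08, adjusted p = 0.113), with 13.14 to 13.19 in dark-grown roots and 13.38 to 13.58 in light-grown roots.

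Carotenoid synthesis, which supplies the substrate of D27, had 3 genes that fell and 1 that rose among 14, against 3.27% lower and 2.46% higher of all loci. The entry enzyme PSY (phytoene synthase) fell by 0.82 on the log2 scale (SE 0.14, adjusted p = 0.0324 in limma), with 12.52, 12.58 and 12.81 in dark-grown roots and 13.32, 13.70 and 13.34 in light-grown roots. These values are of PSY model 2. Model 1 (-0.82, adjusted p = 0.0514 in limma) and model 3 (-1.04, adjusted p = 0.261) did not pass. With the mean of all models of a locus, limma called 2 carotenoid synthesis genes lower. LUT5 (CYP97A3) and LUT2 (lycopene epsilon-cyclase), both of the lutein branch, fell by 1.81 (SE 0.08, adjusted p = 0.000886) and 0.96 (SE 0.11, adjusted p = 0.0106). The gene that rose was ABA1, the zeaxanthin epoxidase on the way to abscisic acid (0.53, SE 0.10, adjusted p = 0.0405). The cyclase LYC, which makes beta-carotene, differed by 0.22 (SE 0.07, adjusted p = 0.147; chosen after its values were seen). The list median was -0.11. LUT5 passed in all 6 fits that left out 1 array (adjusted p = 0.00487 to 0.00814). LUT2 lost its call without dark replicate 1 (-0.98, adjusted p = 0.0521) or dark replicate 2 (-0.92, adjusted p = 0.0531), and PSY (adjusted p = 0.0648 to 0.127) and ABA1 (0.0713 to 0.147) did not pass in any of these fits.

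Of the 7 dioxygenases related to CCD7 and CCD8, 1 fell and 1 rose, against 3.27% lower and 2.46% higher of all loci. CCD1, which cleaves many carotenoids and apocarotenoids, had 14.26, 14.31 and 14.33 in dark-grown roots and 15.03, 15.06 and 14.81 in light-grown roots, a difference of -0.67 (SE 0.09, adjusted p = 0.0172 in limma). NCED3, of abscisic acid synthesis, had 13.82, 13.68 and 13.66 in dark-grown roots and 12.19, 12.30 and 11.54 in light-grown roots (difference 1.71, SE 0.21, adjusted p = 0.0122). The list median was 0.52, against 0.01 over all loci. That median is the difference of NCED5, which did not pass and was dim (means of 7.47 in dark-grown and 6.95 in light-grown roots). NCED3 lost its call without dark replicate 1, 2 or 3 (1.66, 1.73 and 1.74, adjusted p = 0.0545 to 0.0611). CCD1 kept its call only without light replicate 3 (-0.74, adjusted p = 0.0171 in limma), and its adjusted p ran from 0.0615 to 0.0831 without each of the others.

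**Figure D3:**
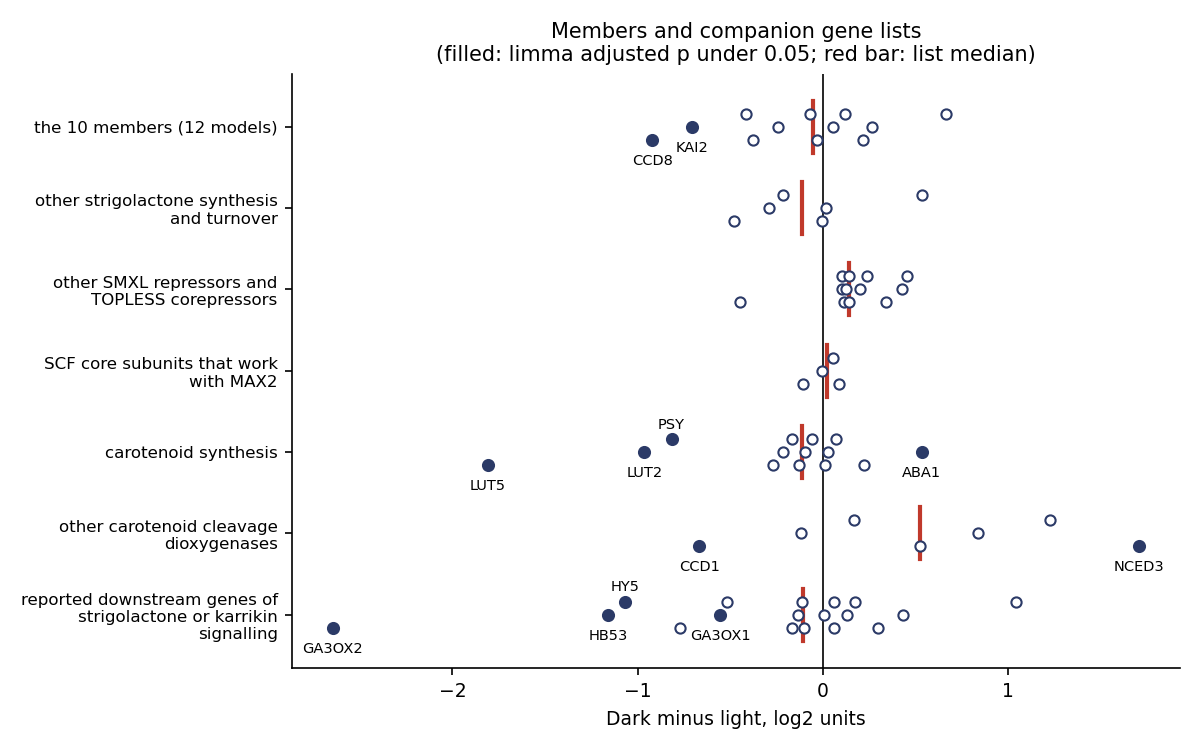
Difference between dark-grown and light-grown roots in log2 units (x axis) for the members and for each gene of the 6 companion lists (y axis), filled and named where limma's adjusted p is under 0.05, with the median of each list as a red bar. The filled points of the members lie at -0.92 and -0.71, and those of the list of reported downstream genes run down to -2.65 for GA3OX2.

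Of 18 genes reported in other work to act downstream of strigolactone or karrikin signalling, in roots, shoots or seeds, 4 fell in dark-grown roots, none rose and 14 did not pass, against 3.27% lower and 2.46% higher of all loci. GA3OX2 and GA3OX1, which make active gibberellins and respond to karrikin in seeds, fell by 2.65 (SE 0.20, adjusted p = 0.00257 in limma) and 0.55 (SE 0.11, adjusted p = 0.0457). GA3OX2 averaged 10.77 ± 0.23 in dark-grown roots and 13.42 ± 0.32 in light-grown roots (mean ± SD, n = 3 each), so that the groups lay far apart. The bZIP factor gene HY5, which promotes light responses, fell by 1.07 (SE 0.09, adjusted p = 0.00326), and the homeobox gene HB53 fell by 1.16 (SE 0.18, adjusted p = 0.0251). HB21 (0.30, adjusted p = 0.554 in limma) and HB40 (0.43, adjusted p = 0.278) of the same list, chosen after their values were seen, had differences above 0 and did not pass. In the 6 fits that left out 1 array GA3OX2 and HY5 always passed, GA3OX1 never did (adjusted p = 0.057 to 0.162), and HB53 did only without dark replicate 3 (-1.32, adjusted p = 0.0324; 0.063 to 0.103 otherwise). The list median was -0.11. The ethylene synthesis gene ACS7 (-0.77, SE 0.19, adjusted p = 0.0804), the B-box gene BBX20 (-0.52, SE 0.14, adjusted p = 0.112) and the root hair regulator gene RSL2 (1.04, SE 0.27, adjusted p = 0.0942) missed the threshold and were picked once their values were known.

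By the distance between profiles centred on their own mean over the 6 arrays, the 5 loci most like CCD8 were SBP2 (distance 0.20 log2 units), BAT5 (0.23), AT1G61550 (0.24), AT4G36500 (0.24) and AT4G08555 (0.25). Their differences ran from -1.0 to -0.73. With 6 arrays in 2 groups, this distance is set largely by the difference between the groups.

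The differences of CCD8, KAI2, D14 and DLK2 kept their sign in each of the 11 alternative fits, but the calls did not hold. CCD8 ranged from -1.04 to -0.74 and passed in 4 of the 11 fits, and KAI2 ranged from -0.82 to -0.64 and passed in 5. For both genes these passes include the fit with arrays centred on their medians. That fit equals the reported one, since every array has a median of 11.84. When 1 array was left out, CCD8 passed only without dark replicate 3 (-0.74, adjusted p = 0.0322 in limma), and its adjusted p ran from 0.0678 to 0.113 without each of the others. CCD8 also missed the threshold with array weights (-0.84, adjusted p = 0.0523 in limma). KAI2 passed only without light replicate 3 (-0.82, adjusted p = 0.0186 in limma), and its adjusted p ran from 0.0869 to 0.116 otherwise. D14 passed with the dimmest models removed (adjusted p = 0.0244) and, like DLK2 (adjusted p = 0.0308), with a variance prior that both follows the signal and is robust to outlying variances (adjusted p = 0.00431 for D14). With that prior 4 member models were lower in the dark, where 4.99% of all models were.

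**Figure D4:**
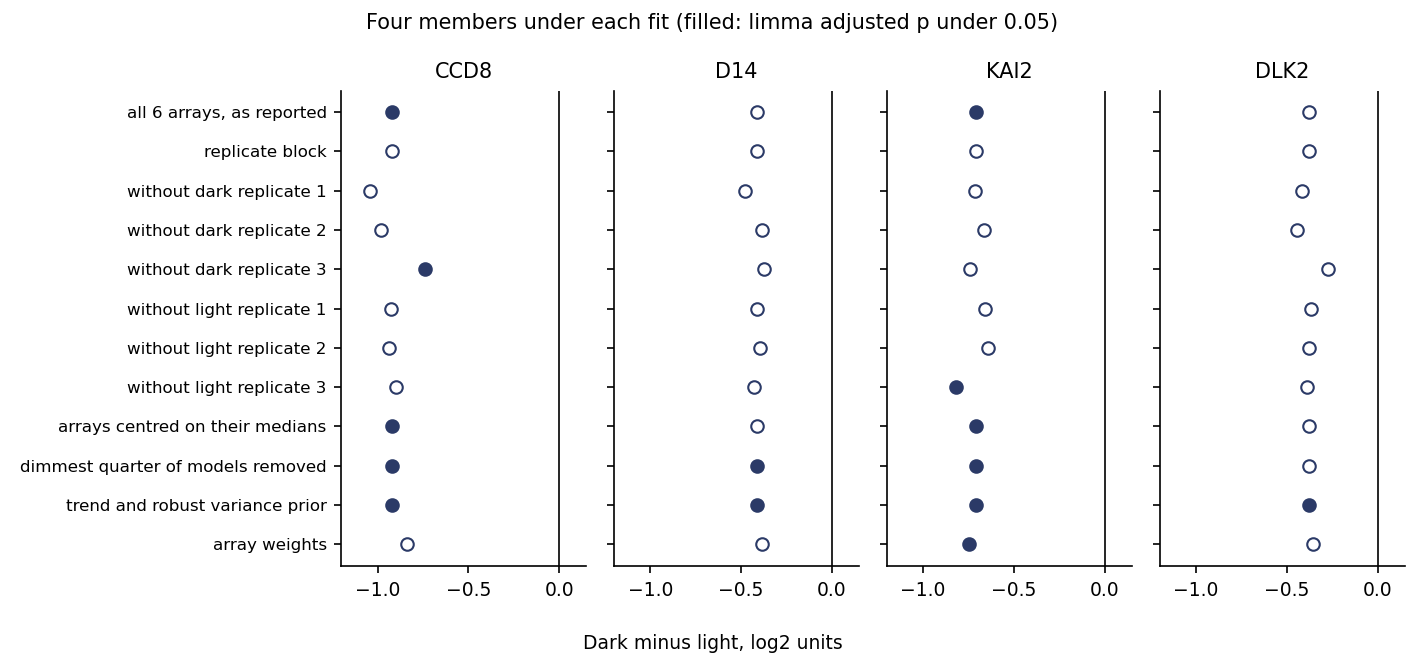
Difference between dark-grown and light-grown roots in log2 units (x axis) of CCD8, D14, KAI2 and DLK2 under the fit as reported and 11 alternatives (y axis), filled where limma's adjusted p is under 0.05. All points lie below 0, with CCD8 filled in 4 alternatives, KAI2 in 5, D14 in 2 and DLK2 in 1. The alternative with arrays centred on their medians equals the fit as reported.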

How the data were processed

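The deposited values are log2 expression values of transcript models, 1 column per array. Ranked within each array, the values matched between all 6 arrays to 0.01, as after quantile normalization by the authors, and no further scaling was applied. Limma is named, without a version, per the submitters' processing notes. Per the labels' protocols, double-stranded cDNA was labelled with Cy3. The sources used here do not state the background correction, probe summary, strand or annotation release. Levels of different models are not compared, except to place models on the scale as dim or bright and to choose a model for each locus. Arrays have no read depth, and their number, 3 per group, limits the precision.

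The difference, dark minus light, was tested two-sided in limma (version 3.58.1, R version 4.3.3, functions lmFit and eBayes) without covariates over all 37118 models with Benjamini-Hochberg adjustment and a threshold of 0.05. SEs are limma's moderated ones. The script was tested on simulated data. Pairs of genes were compared by exact permutation of within-array log ratios (scipy 1.17.1). For the companion lists (61 genes), the model with the highest mean stood for a locus. From each list, genes past the threshold (at most 6), or else the 2 with the lowest p, are named. Members and lists were chosen with earlier results of these data known. Names came from the RefSeq table of TAIR10.1, which held all 10 member loci and 31993 of 32627 loci. It gives no name for D14, SMAX1, DLK2 or the SMXL genes, whose names follow the lists of members and companions. Some others, such as ASK1 and BBX20, have another symbol there and keep their list names. No coordinates or sequences are given, since the array's build is not stated. Figures used matplotlib 3.10.9.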

Additional observations from a re-analysis of the deposited data

How the results depend on the processing

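No alternative turned the sign of CCD8, KAI2, D14, DLK2 or KUF1. Member models called lower in the dark numbered 2 as reported, 0 with a replicate block, 4 with a trend and robust variance prior, 1 with array weights, 0 at a threshold of 0.01 and 0 to 1 when 1 array was left out, and 0 were called higher in any fit. All models called lower and higher numbered 668 and 290 with the block, 1852 and 1879 with the trend and robust prior, 491 and 115 at 0.01, and 607 to 905 and 158 to 473 when 1 array was left out. With models under the 25th percentile of mean signal removed, 1588 were lower and 1627 higher, and with array weights 1310 and 1043.

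In the companion lists, called genes lower in the dark numbered 1 of carotenoid synthesis and 0 of the other dioxygenases with the block, and 1, 0 and 2 (downstream genes) at 0.01. With the dim models removed, 1 SMXL or TOPLESS gene was lower and 2 were higher, as were 2 other dioxygenases (2 also with array weights). With the trend and robust prior, 1 of 6 genes of synthesis and turnover and 3 of 12 SMXL or TOPLESS genes were higher. So were 2 of 14 carotenoid genes, 2 of 7 dioxygenases and 1 of 18 downstream genes. Over all models, calls higher rose from 903 as reported to 1879 with this prior, and to 1627 with the dim models removed. With the block 0 carotenoid genes were higher, and at 0.01 0 carotenoid genes and 0 dioxygenases. With 1 array left out, 1 to 2 carotenoid genes, 0 to 1 dioxygenases and 2 to 3 downstream genes were lower, and 0 carotenoid genes and 0 to 2 dioxygenases were higher. Signs turned only where no call was made. Without 1 array MAX2 ranged from -0.10 to 0.03, SMAX1 from -0.013 to 0.12, CCD7 from -0.023 to 0.49, MAX1 model 2 from -0.0033 to 0.35 (-0.041 with array weights) and CUL1 from -0.02 to 0.15. The cause of these shifts was not tested. The replicate numbers gave same-number correlations of 0.01, 0.06 and 0.41, so they were not read as pairs. With the replicate block neither CCD8 (adjusted p = 0.097 in limma) nor KAI2 (0.0983) passed.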

Other observations

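The genes next to the 10 members in the RefSeq gene order were read as well. Of 20 such neighbours 19 were on the array, and 3 passed limma's test, 2 higher and 1 lower in dark-grown roots, against 2.46% higher and 3.27% lower of all loci. Besides AT4G32820, these were both neighbours of DLK2, namely PERK2, a transcribed pseudogene in that table (1.77, adjusted p = 0.0301 in limma), and HCF101 (-0.56, adjusted p = 0.0236 in limma), a protein needed for iron-sulfur clusters of photosystem I. When 1 array was left out, PERK2 passed only without light replicate 1 (2.03, adjusted p = 0.0336; 0.0669 to 0.107 otherwise) and HCF101 only without light replicate 3 (-0.59, adjusted p = 0.0463; 0.0739 to 0.093 otherwise), in limma. The loci of D27, CCD8 and MAX1, 3 of the 10, overlap another gene in that table. The genes overlapping D27 and MAX1 did not pass (AT1G03050 at -0.44 and IQD6 at -0.03).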
